A study of Mus musculus with 6 samples.

Results

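The glucocorticoid responsive stress genes were 10 genes, taken by symbol from tables of 51826 genes measured in irradiated mouse cortex. They were *Fkbp5*, *Sgk1*, *Tsc22d3*, *Zbtb16*, *Hif3a*, *Pdk4*, *Ddit4*, *Plin4*, *Nfkbia*, and *Sult1a1*. They were listed for what they are known to do, but earlier results of these data were known when they were chosen. Each symbol matched 1 row, and all 10 were among the 18345 genes with enough counts to be tested. RNA-seq was performed on bulk cortex from male BALB/c mice, 6 to 8 weeks old, on day 3 after a single whole-brain X-ray dose of 10 Gy. *Lgmn*+/+-IR mice were wild type (n = 3), and *Lgmn*-/--IR mice (n = 3) lacked asparagine endopeptidase (AEP, encoded by *Lgmn*). The knockout line came from an embryonic stem cell clone with a floxed *Lgmn*, was passed through Flp mice, and was made homozygous in mice carrying Cre, whose driver is not given in the sources used here. Every library came from an irradiated mouse, so the comparison was between genotypes after irradiation, and non-irradiated cortex was not analysed here. The hour of dissection and the corticosterone level of the mice, which were kept on a 12-h light-dark cycle, are not given in the sources used here.

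Glucocorticoids, chiefly corticosterone in the mouse, are released from the adrenal gland in a daily rhythm and in response to stress. They enter cells and bind the glucocorticoid receptor, which leaves its heat shock protein complex, moves to the nucleus, and binds paired AGAACA-like sites in DNA, known as glucocorticoid response elements. In brain, transcripts such as *Fkbp5*, *Sgk1*, and *Tsc22d3* are standard readouts of this signal in neurons, glia, and vessels, although several of them also respond to insulin, hypoxia, fasting, or cytokines.

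The libraries held 41874462 to 46829441 counts each. *Lgmn* had 5558, 5528, and 5775 counts in *Lgmn*+/+-IR replicates 1 to 3 and 3703, 3269, and 4109 counts in *Lgmn*-/--IR replicates 1 to 3 (log2 fold change, knockout over wild type, −0.64, SE 0.12, edgeR adjusted p = 0.0315). It was thus lower, but not lost, in the knockout, and these whole-gene counts do not show which exons were read. With 1 library left out at a time, the adjusted p for *Lgmn* rose to as much as 0.131, and it passed 0.05 only without *Lgmn*-/--IR replicate 2 or 3. All 8 markers of cortical neurons were detected in every library, and their summed levels ran from 4865 to 5834 CPM (counts scaled to a common library size) in *Lgmn*+/+-IR and from 5525 to 6811 CPM in *Lgmn*-/--IR. *Lgmn*-/--IR replicate 2 stood apart from the other libraries, with 5.68% of counts from mitochondrial genes against 8.03% to 9.43% elsewhere. The log2 fold change of each member is therefore given with and without it. Hemoglobin transcripts made up 0.000736% to 0.00156% of counts in *Lgmn*+/+-IR and 0.0217% to 0.223% in *Lgmn*-/--IR.

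To show where a receptor site is written in the DNA of these genes, the 250 bases before RefSeq start sites (GRCm38.p6) are given for 4 of them. The windows searched ran from 250 bases before to 50 after each start, and 16 of them belonged to 9 of the 10 genes. *Zbtb16* had no window, and DNA outside the windows was not searched. *Sgk1* is shown because it was the only member searched with the complete element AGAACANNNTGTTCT in a window. The element lay at its start at position 21993890 of chromosome 10 (plus strand, chr10:21993640-21993889), with its first base 189 bases before the start. *Tsc22d3* (minus strand, chrX:140600523-140600772) and *Sult1a1* (minus strand, chr7:126676419-126676668) are shown because they held AGAACA alone, and *Fkbp5* (minus strand, chr17:28486150-28486399) because it held neither. Each sequence reads 5′ to 3′ toward the start on its own strand, and capitals mark the complete element and every AGAACA or its reverse complement TGTTCT.
Sgk1: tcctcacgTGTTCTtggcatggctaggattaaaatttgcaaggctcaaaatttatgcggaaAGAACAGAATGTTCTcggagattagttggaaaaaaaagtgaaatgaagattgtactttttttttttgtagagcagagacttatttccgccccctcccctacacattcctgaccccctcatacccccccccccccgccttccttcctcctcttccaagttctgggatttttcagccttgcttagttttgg
Tsc22d3: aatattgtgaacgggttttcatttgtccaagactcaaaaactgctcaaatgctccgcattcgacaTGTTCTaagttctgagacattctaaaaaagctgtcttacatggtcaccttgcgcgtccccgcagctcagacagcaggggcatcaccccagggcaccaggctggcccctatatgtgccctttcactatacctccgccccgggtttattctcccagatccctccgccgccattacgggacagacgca
Sult1a1: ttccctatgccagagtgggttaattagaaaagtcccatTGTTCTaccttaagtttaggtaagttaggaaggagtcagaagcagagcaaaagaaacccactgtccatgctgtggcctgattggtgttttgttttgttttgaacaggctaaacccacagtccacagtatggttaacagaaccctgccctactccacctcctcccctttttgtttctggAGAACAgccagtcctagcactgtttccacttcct
Fkbp5: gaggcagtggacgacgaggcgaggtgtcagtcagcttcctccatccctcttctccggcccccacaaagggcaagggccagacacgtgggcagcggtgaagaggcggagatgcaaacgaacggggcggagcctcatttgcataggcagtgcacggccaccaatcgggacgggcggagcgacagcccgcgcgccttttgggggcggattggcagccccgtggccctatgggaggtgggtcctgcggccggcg
The complete element, which reads the same on both strands, was found in 3 of the 32851 windows of all genes (0.00913%), 1 of which was this *Sgk1* window with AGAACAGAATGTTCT. A looser form, GNACANNNTGTNC, was found in 0.475% of all windows and in the same single *Sgk1* window among the members. AGAACA on either strand was found in 19.0% of all windows and in 5 of 16 member windows (31.2%), from *Sgk1*, *Tsc22d3*, and *Sult1a1*; each complete element also counts as a pair of these matches. *Sgk1* has 6 such starts, and the counts per gene do not tell which of them was used. A match is a description of the letters only, and receptor binding was not measured.

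No member passed the test for a difference between *Lgmn*-/--IR and *Lgmn*+/+-IR cortex. Across all tested genes, 611 of 18345 were called by edgeR at an adjusted p under 0.05 (3.33%), against 0 of 10 members. With an absolute log2 fold change over 1 as well, 2.06% of all genes were called, and again 0 members. No member had an unadjusted edgeR p under 0.05, against 18.6% of all genes, and the smallest was 0.0583 for *Sult1a1*. DESeq2 and limma-voom also called 0 members (DESeq2 called 7.76% of the genes it gave an adjusted p), with 1 member each at an unadjusted p under 0.05, again *Sult1a1* (0.0377 and 0.0444). Fitted log2 fold changes were below 0 for 9 of the 10 members and for 51.7% of all tested genes, with medians of −0.30 and −0.01. Most members had a wider spread among libraries of the same genotype than the median of all tested genes. Values are given for each gene below in CPM scaled by the trimmed mean of M-values (TMM). In bulk cortex, fewer cells of a type and less RNA per cell cannot be told apart. Whether the libraries came from separate mice is not stated in the sample labels, so the tests measure the spread between these samples.

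**Figure D1:**
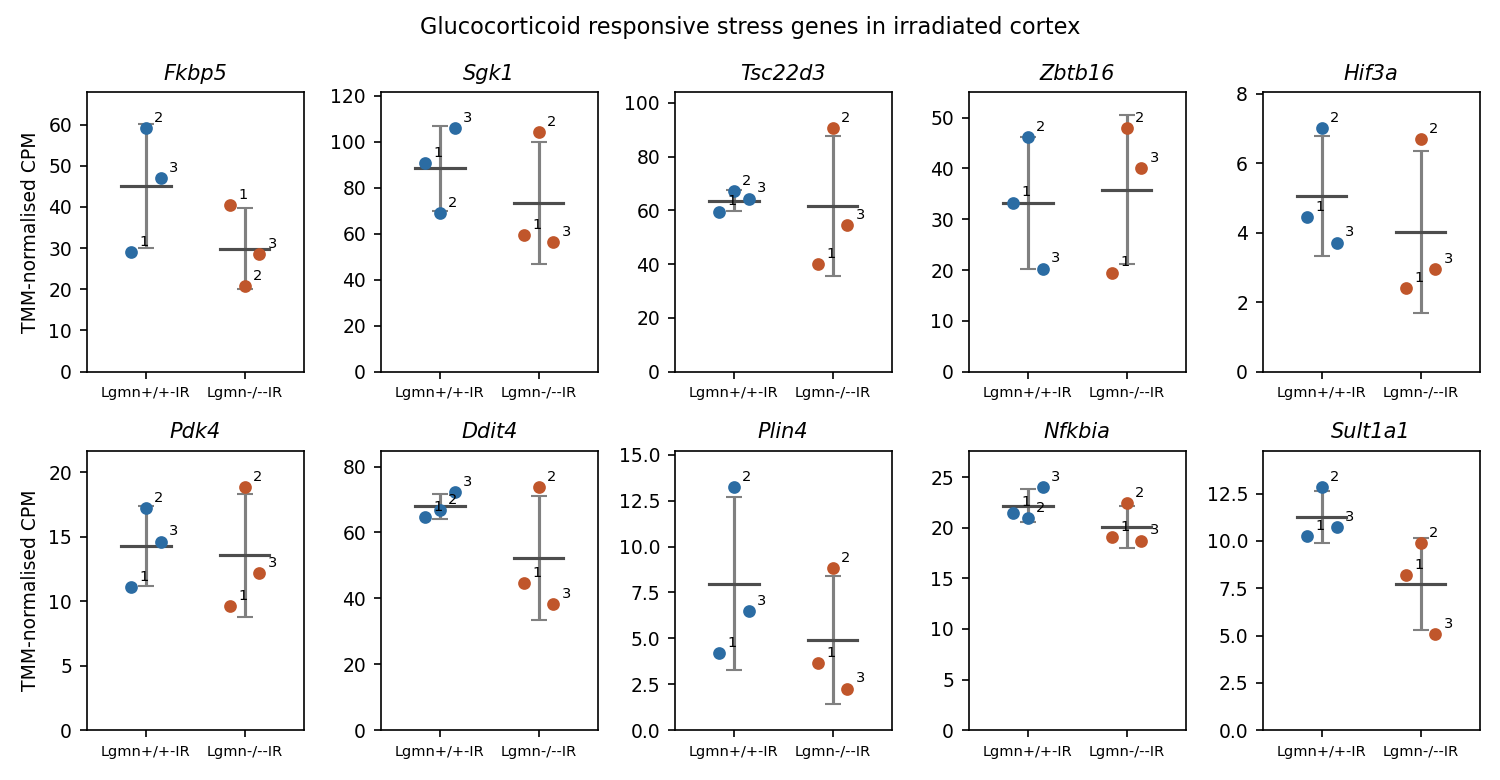
Expression of the 10 glucocorticoid responsive stress genes in each library, in TMM-scaled CPM (linear axis from 0), with *Lgmn*+/+-IR and *Lgmn*-/--IR side by side. Points are libraries labelled by replicate number, horizontal lines are group means, and error bars are the SD (n = 3); groups overlap for every gene except *Sult1a1*, and *Lgmn*-/--IR replicate 2 is the highest knockout library for all genes but *Fkbp5*.

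*Fkbp5* (chr17:28399094-28517527) encodes a co-chaperone that lowers the hormone affinity of the glucocorticoid receptor and closes a short negative feedback loop. Its level was 29.1, 59.1, and 47.1 CPM in *Lgmn*+/+-IR replicates 1 to 3 and 40.4, 20.7, and 28.5 CPM in *Lgmn*-/--IR replicates 1 to 3. The groups overlapped, since wild-type replicate 1 lay beside knockout replicate 3 and below knockout replicate 1. The means were 45.1 ± 15.1 and 29.9 ± 9.89 CPM (SD, n = 3 each), and the fitted log2 fold change was −0.59 (SE 0.31, edgeR adjusted p = 0.362). The 95% interval of the fold ran from 0.398 to 1.10, so a reduction to well under the wild-type level and no reduction were both within it. *Fkbp5* was the single member for which knockout replicate 2 was the lowest of its group, and without that library the log2 fold change was −0.39 (edgeR adjusted p = 0.521). Leaving out each library in turn gave values from −0.87, without knockout replicate 1, to −0.35, without wild-type replicate 2, and −0.82 without wild-type replicate 1.

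The kinase genes came next. *Sgk1* (chr10:21882184-21999903), serum and glucocorticoid regulated kinase 1, acts on ion channels and transporters downstream of PI3K. It measured 90.6, 68.9, and 106 CPM in *Lgmn*+/+-IR and 59.5, 104, and 56.4 CPM in *Lgmn*-/--IR. Knockout replicates 1 and 3 were below every wild-type library, whereas knockout replicate 2 was level with the highest of them. The means were 88.4 ± 18.5 and 73.3 ± 26.7 CPM (SD, n = 3 each), with a log2 fold change of −0.27 (SE 0.26, edgeR adjusted p = 0.635, 95% interval of the fold 0.538 to 1.28). With 1 library left out, it ran from −0.60 without knockout replicate 2 (edgeR adjusted p = 0.138) to −0.11 without knockout replicate 3. *Pdk4* (chr6:5483351-5496309) encodes a mitochondrial kinase that switches off pyruvate dehydrogenase and so spares glucose. It measured 11.1, 17.2, and 14.6 CPM in *Lgmn*+/+-IR and 9.63, 18.8, and 12.1 CPM in *Lgmn*-/--IR. Replicate 2 was the highest of both genotypes, and the groups interleaved. The log2 fold change of *Pdk4* was −0.08 (SE 0.27, edgeR adjusted p = 0.903, 95% interval of the fold 0.609 to 1.47), and it was −0.39 without knockout replicate 2 (edgeR adjusted p = 0.359) and 0.12 without knockout replicate 1.

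Among the transcriptional regulators, *Tsc22d3* (chrX:140539528-140600659) encodes the glucocorticoid-induced leucine zipper protein, which restrains NF-kB and AP-1. It measured 59.6, 67.0, and 64.3 CPM in *Lgmn*+/+-IR and 40.1, 90.4, and 54.4 CPM in *Lgmn*-/--IR. The wild-type libraries were close to each other and lay in the gap of the knockout ones, with 2 knockout libraries below them and replicate 2 above. The means were 63.6 ± 3.79 and 61.7 ± 25.9 CPM (SD, n = 3 each), with a log2 fold change of −0.05 (SE 0.27, edgeR adjusted p = 0.944, 95% interval of the fold 0.623 to 1.51). It was −0.42 without knockout replicate 2 (edgeR adjusted p = 0.187) and 0.19 without knockout replicate 1. *Zbtb16* (chr9:48654297-48836222), a zinc finger transcription factor also known as PLZF, measured 33.3, 46.2, and 20.3 CPM in *Lgmn*+/+-IR and 19.5, 47.9, and 40.0 CPM in *Lgmn*-/--IR. Both genotypes spanned nearly the same range. *Zbtb16* was the only member with a fitted log2 fold change above 0, at 0.11 (SE 0.39, edgeR adjusted p = 0.909, 95% interval of the fold 0.573 to 2.02), and it was −0.16 without knockout replicate 2 (edgeR adjusted p = 0.861) and 0.42 without wild-type replicate 2. *Hif3a* (chr7:17031507-17062427) encodes an alpha subunit of the hypoxia-inducible factors, of which some forms oppose the others. It measured 4.45, 7.01, and 3.72 CPM in *Lgmn*+/+-IR and 2.41, 6.70, and 2.96 CPM in *Lgmn*-/--IR. Replicate 2 was again the highest of each genotype, and the other knockout libraries were below all wild-type ones. Its log2 fold change was −0.33 (SE 0.42, edgeR adjusted p = 0.722, 95% interval of the fold 0.401 to 1.58), and it was −0.91 without knockout replicate 2 (edgeR adjusted p = 0.179) but −0.02 without wild-type replicate 2 (edgeR adjusted p = 0.991).

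*Ddit4* (chr10:59949669-59951834), also called REDD1, encodes an inhibitor of mTOR signalling induced by stress, hypoxia, and glucocorticoids. Its level was 64.7, 66.8, and 72.2 CPM in *Lgmn*+/+-IR and 44.6, 73.8, and 38.3 CPM in *Lgmn*-/--IR. Knockout replicates 1 and 3 were well below the narrow wild-type range, and knockout replicate 2 was above it. With all libraries the means were 67.9 ± 3.89 and 52.3 ± 18.9 CPM (SD, n = 3 each), and the log2 fold change of −0.38 (SE 0.23) did not pass the test (edgeR adjusted p = 0.437, 95% interval of the fold 0.526 to 1.13). Without knockout replicate 2, *Ddit4* was lower in the knockout by −0.71 on the log2 scale (SE 0.11, edgeR adjusted p = 0.0366). This was the only call of any member in 18 alternative analyses, and it rests on the removal of 1 of 3 knockout libraries; without knockout replicate 3 the value was −0.195 (edgeR adjusted p = 0.768). *Nfkbia* (chr12:55489410-55492647) encodes IkB-alpha, which holds NF-kB in the cytoplasm. It measured 21.5, 21.0, and 24 CPM in *Lgmn*+/+-IR and 19.1, 22.5, and 18.7 CPM in *Lgmn*-/--IR. It was the steadiest of the members, although knockout replicate 2 again lay among the wild-type libraries and the other 2 knockout libraries below them. Its log2 fold change was −0.14 (SE 0.11, edgeR adjusted p = 0.558), with the narrowest 95% interval of the fold among the members, 0.752 to 1.09, and with 1 library left out it ran from −0.22 without knockout replicate 2 (edgeR adjusted p = 0.285) to −0.08 without wild-type replicate 3. *Nfkbia* is on the same chromosome as *Lgmn*, 46.9 Mb before it.

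*Plin4* (chr17:56100591-56109803), which encodes a coat protein of lipid droplets, was the most variable member. It measured 4.20, 13.2, and 6.49 CPM in *Lgmn*+/+-IR and 3.65, 8.83, and 2.26 CPM in *Lgmn*-/--IR. Replicate 2 was the highest of both genotypes. The log2 fold change of −0.70 had an SE of 0.58 (edgeR adjusted p = 0.564), and the 95% interval of the fold, 0.241 to 1.58, left the direction unresolved. It was −1.43 without knockout replicate 2 (edgeR adjusted p = 0.197) but −0.12 without wild-type replicate 2 (edgeR adjusted p = 0.947), so each replicate 2 moved it in its own direction. *Sult1a1* (chr7:126672865-126676432) encodes a sulfotransferase for phenols and catecholamines. It measured 10.2, 12.8, and 10.7 CPM in *Lgmn*+/+-IR and 8.19, 9.87, and 5.08 CPM in *Lgmn*-/--IR. It was the only member whose groups did not overlap, with all 3 knockout libraries lower, an arrangement seen in 13.3% of all tested genes. The means were 11.3 ± 1.38 and 7.71 ± 2.43 CPM (SD, n = 3 each), with a log2 fold change of −0.55 (SE 0.24, edgeR adjusted p = 0.287, 95% interval of the fold 0.461 to 1.02). With 1 library left out it ran from −0.76 without knockout replicate 2 (edgeR adjusted p = 0.147) to −0.32 without knockout replicate 3. An exact two-sided permutation test gave p = 0.1, the smallest that 3 against 3 libraries can give. *Plin4* and *Sult1a1* overlap genes on the opposite strand, *Hdgfl2* (3159 to 3884 counts) and *Sgf29* (379 to 525 counts), and whether the counting used strand is not stated, so reads of these pairs cannot be told apart.

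**Figure D2:**
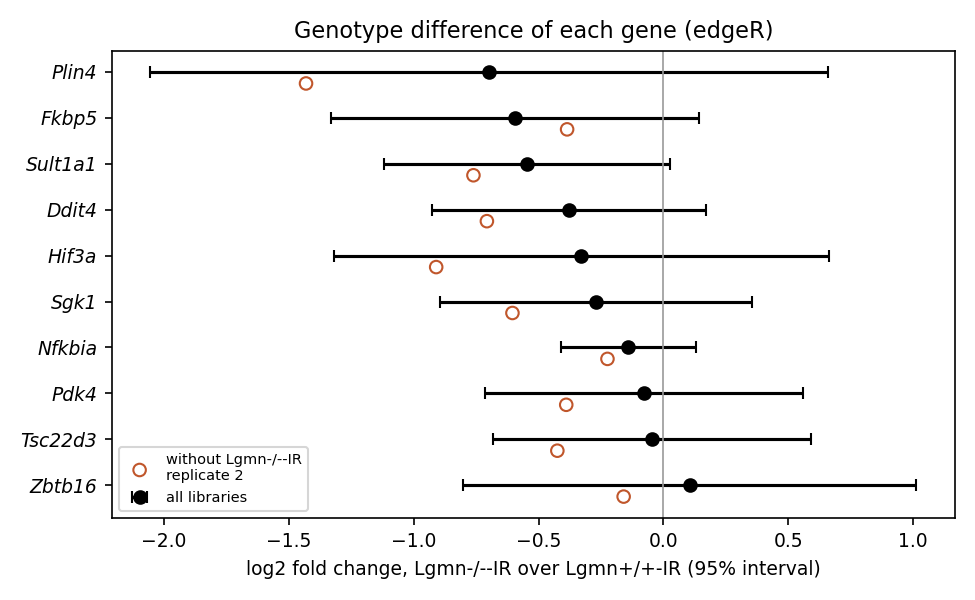
Fitted log2 fold change (*Lgmn*-/--IR over *Lgmn*+/+-IR) of each member, as filled points with 95% intervals for all 6 libraries and as open points, with no interval drawn, without *Lgmn*-/--IR replicate 2. All intervals from the 6 libraries include 0, and *Ddit4* is the only member with an adjusted p under 0.05 after that library was left out.

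The levels of the members, compared per transcript length as FPKM (fragments scaled by both transcript length and library size), fell into 3 tiers. *Ddit4* (30.3 ± 8.26 FPKM), *Sgk1* (29.9 ± 9.51), and *Tsc22d3* (26.3 ± 6.81) formed the upper tier (mean ± SD over all 6 libraries), and their ranges overlapped. *Nfkbia* followed at 12.3 ± 1.38 FPKM, below the lowest library of *Tsc22d3*. *Nfkbia*, *Fkbp5* (9.39 ± 3.68), *Zbtb16* (7.22 ± 2.65), *Sult1a1* (6.61 ± 1.95), and *Pdk4* (3.68 ± 1.10) each overlapped the next in FPKM. *Plin4* (0.998 ± 0.649 FPKM) and *Hif3a* (0.771 ± 0.335 FPKM) were the lowest, overlapped each other, and did not reach the lowest library of *Pdk4*. The counts behind the members ran from 99, for *Plin4* in knockout replicate 3, to 4830, for *Sgk1* in knockout replicate 2, so counting error was small beside the spread among replicates. *Hif3a* was listed higher in wild-type replicate 3 than in replicate 1 in FPKM (0.818 and 0.667) but lower in counts (169 and 190).

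Libraries of the same genotype differed more in these genes than in most. The highest of 3 libraries exceeded the lowest by a median of 1.54-fold over the members in *Lgmn*+/+-IR and 1.95-fold in *Lgmn*-/--IR, against 1.25-fold and 1.31-fold over all tested genes. Of the 10 members, 7 were above the all-gene median in *Lgmn*+/+-IR and 9 in *Lgmn*-/--IR. In *Lgmn*+/+-IR, *Sult1a1* was level with that median (1.253-fold against 1.252-fold), and *Tsc22d3*, *Ddit4*, and *Nfkbia* were below it. This spread was not computed for the other gene lists. *Plin4* had the widest range in both genotypes, 3.13-fold and 3.86-fold. *Zbtb16* ranged 2.27-fold and 2.46-fold. *Tsc22d3* and *Ddit4* differed between genotypes in this respect, with ranges of 1.13-fold and 1.12-fold in wild type and 2.25-fold and 1.92-fold in the knockout, although the difference in spread was not tested.

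Much of the knockout spread lay in replicate 2. It was the highest knockout library for 9 of 10 members, against 34.5% of all tested genes, and it was at least 1.5-fold above both other knockout libraries for 6 of 10, against 3.90% of all tested genes. These 6 were *Plin4* (2.42-fold over the higher of the other libraries), *Hif3a* (2.26-fold), *Sgk1* (1.75-fold), *Tsc22d3* (1.66-fold), *Ddit4* (1.65-fold), and *Pdk4* (1.55-fold). *Fkbp5* was the exception, with a replicate 2 level of 0.602 times the mean of the other knockout libraries. In wild type, replicate 2 was the highest library for 7 members, against 26.4% of all tested genes, and replicate 3 was the highest for *Sgk1*, *Ddit4*, and *Nfkbia*. These counts describe single libraries and were given no test. The same library had the lowest mitochondrial share, and the lowest summed level of 8 endothelial markers (198 CPM, against 269 and 286 CPM in the other knockout libraries and 201, 282, and 253 CPM in wild-type replicates 1 to 3), and of 8 mural cell markers (176 CPM, against 250 and 282 CPM in the other knockout libraries and 217 to 259 CPM in wild type). Of these endothelial and mural markers, 0 were called between genotypes by edgeR (2 endothelial and 0 mural markers at an unadjusted p under 0.05, and the same numbers called by DESeq2), and none was at 0. *Fkbp5* was, like the endothelial and mural sums, lowest in replicate 1 of the wild type and in replicate 2 of the knockout. Between genotypes, the median log2 fold changes of these markers were 0.41 (endothelial) and 0.12 (mural), against −0.59 for *Fkbp5*. The part of these marker differences in the members' values was not tested.

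**Figure D3:**
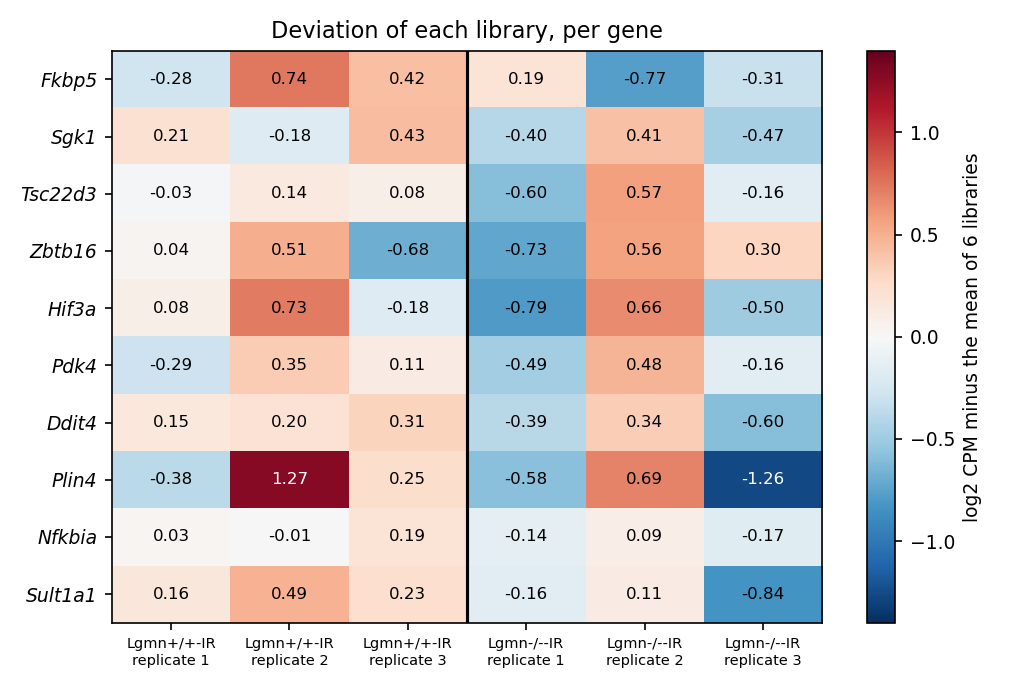
Deviation of each member in each library from its own mean over the 6 libraries, as log2 CPM. *Lgmn*-/--IR replicate 2 and *Lgmn*+/+-IR replicate 2 are above the mean for most members, *Lgmn*-/--IR replicates 1 and 3 are below it for most, and *Fkbp5* runs against the others in *Lgmn*-/--IR replicate 2.

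Most pairs of members had a positive correlation across libraries, with *Fkbp5* and in part *Zbtb16* apart, but no single pair passed the adjusted test. Pearson's r over the 6 libraries (log2 CPM, both genotypes together) was positive in 38 of 45 pairs (84.4%), against 50% of all pairs of tested genes. Of these pairs, 10 had an exact permutation p under 0.05 and 0 an adjusted p under 0.05 (Benjamini-Hochberg over the 45 pairs, smallest 0.104). Among the 36 pairs without *Fkbp5*, 34 were positive and the median r was 0.671, whereas the 9 pairs with *Fkbp5* ran from −0.363 to 0.439, with 5 below 0 and a median of −0.027. *Zbtb16* was positive in 6 of its 9 pairs with a median of 0.166, and its r was −0.0668 with *Nfkbia* and 0.0172 with *Sult1a1*. The closest pair was *Sgk1* and *Nfkbia* (r = 0.952, exact permutation p = 0.00417, adjusted 0.104; rho = 1.0, exact permutation p = 0.00278, adjusted 0.125). It kept r = 0.935 without the 2 libraries farthest from the median of *Sgk1*. *Ddit4* and *Nfkbia* (r = 0.919, exact permutation p = 0.00556, adjusted 0.104; rho = 0.886, exact permutation p = 0.0333, adjusted 0.188) had r = 0.742 without the 2 farthest libraries. *Tsc22d3* and *Pdk4* (r = 0.909, exact permutation p = 0.00694, adjusted 0.104; rho = 0.943, exact permutation p = 0.0167, adjusted 0.188) had r = 0.812 without them. Each genotype has only 3 libraries, too few for a correlation within it. With each genotype's mean taken out of the 6 libraries, a step added after seeing the data and given no test, 37 of 45 pairs were positive (82.2%, against 50% of all pairs of tested genes), and 35 of the 36 pairs without *Fkbp5*. In these deviations r was 0.957 for *Sgk1* and *Nfkbia*, 0.906 for *Tsc22d3* and *Pdk4*, and 0.878 for *Ddit4* and *Nfkbia*, so these values were about as high with the difference between genotypes removed. This step keeps the deviation of knockout replicate 2, the highest knockout library for 9 of 10 members. The pairs were not recomputed with only that library left out, so its part in the positive correlations was not tested.

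**Figure D4:**
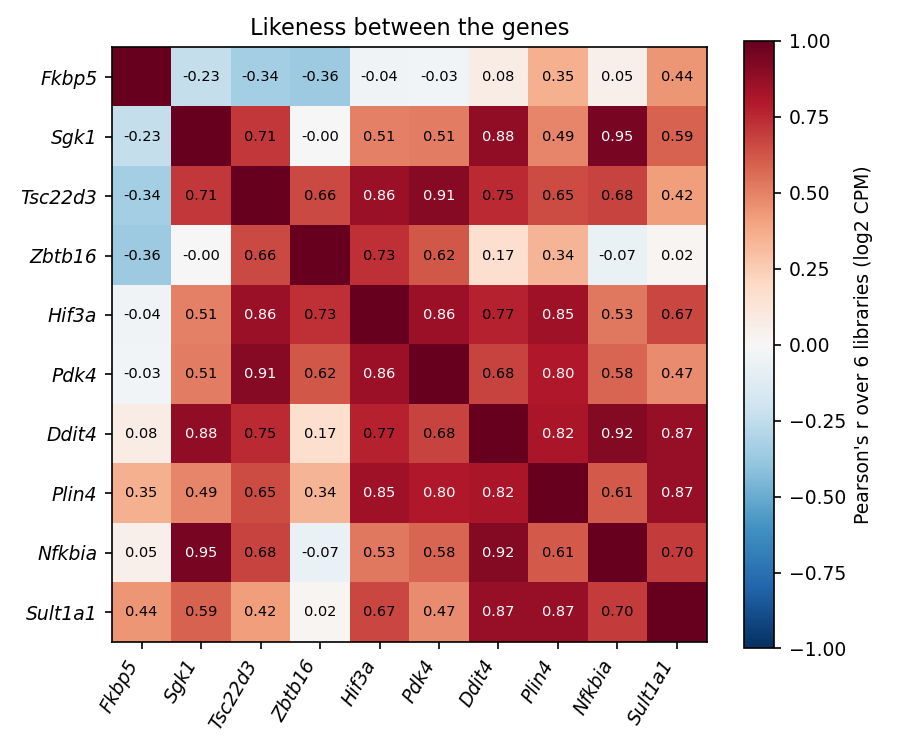
Pearson's r of log2 CPM over the 6 libraries for each pair of members. Most pairs are positive, *Sgk1* with *Nfkbia* is the closest at 0.952, and the *Fkbp5* pairs lie between −0.363 and 0.439.

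The mean z score of the 10 members, a summary of their shared level, was −0.0103, 0.714, and 0.381 in *Lgmn*+/+-IR replicates 1 to 3 and −0.901, 0.697, and −0.88 in *Lgmn*-/--IR replicates 1 to 3. Knockout replicates 1 and 3 were the lowest of all libraries, and replicate 2 of each genotype the highest. Over these 6 libraries, the genes whose pattern was most like this mean were *Gm6788* (r = 0.993, only 10 to 20 counts), *Chtf18* (0.990), *Gm7658* (0.988), *Eva1a* (0.987), and *Slc35f5* (0.987). Of 18335 other genes, 325 had r above 0.9 and 242 had r below −0.9, so a high r with this mean was not particular to the genes named.

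The receptor side of the pathway showed no called difference in the main edgeR fit. Of 19 listed genes for corticosteroid receptors, steroid supply, and receptor chaperones, 17 were tested and 0 were called by edgeR (4 at an unadjusted p under 0.05, and 2 called by DESeq2), with a median log2 fold change of 0.18. *Nr3c1*, which encodes the glucocorticoid receptor, measured 57.8, 57.6, and 96.5 CPM in *Lgmn*+/+-IR and 85.9, 91.9, and 104 CPM in *Lgmn*-/--IR. Wild-type replicate 3 lay among the knockout libraries, and the log2 fold change was 0.41 (SE 0.21, edgeR adjusted p = 0.355, 95% interval of the fold 0.940 to 1.88). *Nr3c2*, which encodes the mineralocorticoid receptor that binds corticosterone with higher affinity, measured 24.1, 15, and 42 CPM in *Lgmn*+/+-IR and 26, 25.3, and 29.4 CPM in *Lgmn*-/--IR. Its groups overlapped fully (log2 fold change −0.01, SE 0.33, edgeR adjusted p = 0.993, 95% interval of the fold 0.577 to 1.71). The gene nearest to the threshold, named here after its values were seen, was *Stip1*, a co-chaperone that links HSP70 to HSP90, at 177, 184, and 196 CPM in *Lgmn*+/+-IR and 280, 243, and 345 CPM in *Lgmn*-/--IR. All knockout libraries were higher (log2 fold change 0.64, SE 0.13, edgeR adjusted p = 0.0538, and 0.0363 without knockout replicate 2), and it was 1 of 5 among the 17 genes with all knockout libraries above all wild-type ones, against 12.4% of all tested genes. DESeq2 called *Stip1* and *Hspa8*, both higher in the knockout (log2 fold changes 0.65 and 0.49, DESeq2 adjusted p = 0.00145 and 0.00825). *Hspa8* is likewise named after its values were seen. None of the 17 was at least 1.5-fold higher in knockout replicate 2 than in both other knockout libraries.

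Of 28 other genes known to be induced by glucocorticoids, 27 were tested and 1 was called by edgeR (3.7%), against 3.33% of all genes. At an unadjusted edgeR p under 0.05 there were 7 of the 27, against 18.6% of all genes. DESeq2 called 5 of the 27, against 7.76% of the genes it gave an adjusted p. The edgeR call was *Nfil3*, a basic leucine zipper repressor, at 7.95, 10.7, and 9.67 CPM in *Lgmn*+/+-IR and 13.7, 17.7, and 17.9 CPM in *Lgmn*-/--IR. All knockout libraries were higher (log2 fold change 0.80, SE 0.16, edgeR adjusted p = 0.0499), but the call was at the edge of the threshold and was made in only 2 of 18 alternatives. It was lost without any single library, with edgeR adjusted p from 0.0530 to 0.166. Fitted log2 fold changes were below 0 for 17 of the 27 genes, with a median of −0.06. In knockout replicate 2, 2 of the 27 (7.41%), *Plekhf1* and *Sdc4*, were at least 1.5-fold above both other knockout libraries, compared with 6 of the 10 members. Both genes are named here after their values were seen. The order of the libraries was nonetheless shared in part, since replicate 2 was the highest knockout library for 16 of the 27 genes (59.3%) and the highest wild-type library for 16 of the 27 (59.3%), against 34.5% and 26.4% of all tested genes.

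Close relatives of the members were compared next. Of 22 listed, 18 were tested and 1 was called by edgeR, against 3.33% of all genes. *Sgk2*, a kinase of the same family as *Sgk1*, measured 4.17, 3.62, and 2.59 CPM in *Lgmn*+/+-IR and 0.9, 1.08, and 0.889 CPM in *Lgmn*-/--IR. All knockout libraries were lower, and the log2 fold change was −1.85 (SE 0.24, edgeR adjusted p = 0.00953), an estimate whose 95% interval of the fold, 0.187 to 0.410, lay below that of *Sgk1*. The *Sgk2* call was lost at an edgeR adjusted p of 0.0517 without wild-type replicate 2 and 0.0511 without knockout replicate 3. The median log2 fold change of the relatives was 0.05.

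Other stress programmes that act on some of the same genes were also compared. Of 8 NF-kB feedback genes, 10 hypoxia-inducible factor targets, 10 FOXO and PPAR fasting genes, and 10 ATF4 targets, 0 were called by edgeR. In the same order, 1, 2, 2, and 5 genes had an unadjusted edgeR p under 0.05, against 18.6% of all genes. DESeq2 called 0, 1, 1, and 1, against 7.76% of all genes. Of the ATF4 targets, 3 had all knockout libraries above all wild-type ones and 2 had all below, against 12.4% and 13.3% of all tested genes. The median log2 fold changes of these lists were 0.04, 0.05, −0.06, and −0.01. Of the FOXO and PPAR fasting genes, 2 of 10 were at least 1.5-fold higher in knockout replicate 2 than in both other knockout libraries. These were *Txnip* (6.71, 16.6, and 7.79 CPM in *Lgmn*-/--IR replicates 1 to 3, 2.13-fold) and *Acot1* (1.505-fold), both named after their values were seen. The NF-kB, hypoxia-inducible factor, and ATF4 lists held 0 such genes. Of 14 circadian clock genes, 2 were called by edgeR, against 3.33% of all genes. *Dbp*, a clock output gene, was lower in all knockout libraries (163, 154, and 155 CPM against 108, 96.9, and 92.3 CPM, log2 fold change −0.67, SE 0.09, edgeR adjusted p = 0.0115). *Arntl*, which encodes the clock activator BMAL1, was higher (24.8, 24.1, and 23.0 CPM against 35.1, 38.3, and 47.2 CPM, log2 fold change 0.75, SE 0.13, edgeR adjusted p = 0.0267). The *Dbp* call was lost without wild-type replicate 2 or 3 (edgeR adjusted p = 0.0619 and 0.0519), and the *Arntl* call without any library but knockout replicate 1, with edgeR adjusted p of up to 0.120. *Per1*, a clock gene with a known glucocorticoid response, is named after its values were seen and did not pass (log2 fold change −0.04, edgeR adjusted p = 0.880). Corticosterone follows the day, and the part of dissection time in the members' values was not tested.

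**Figure D5:**
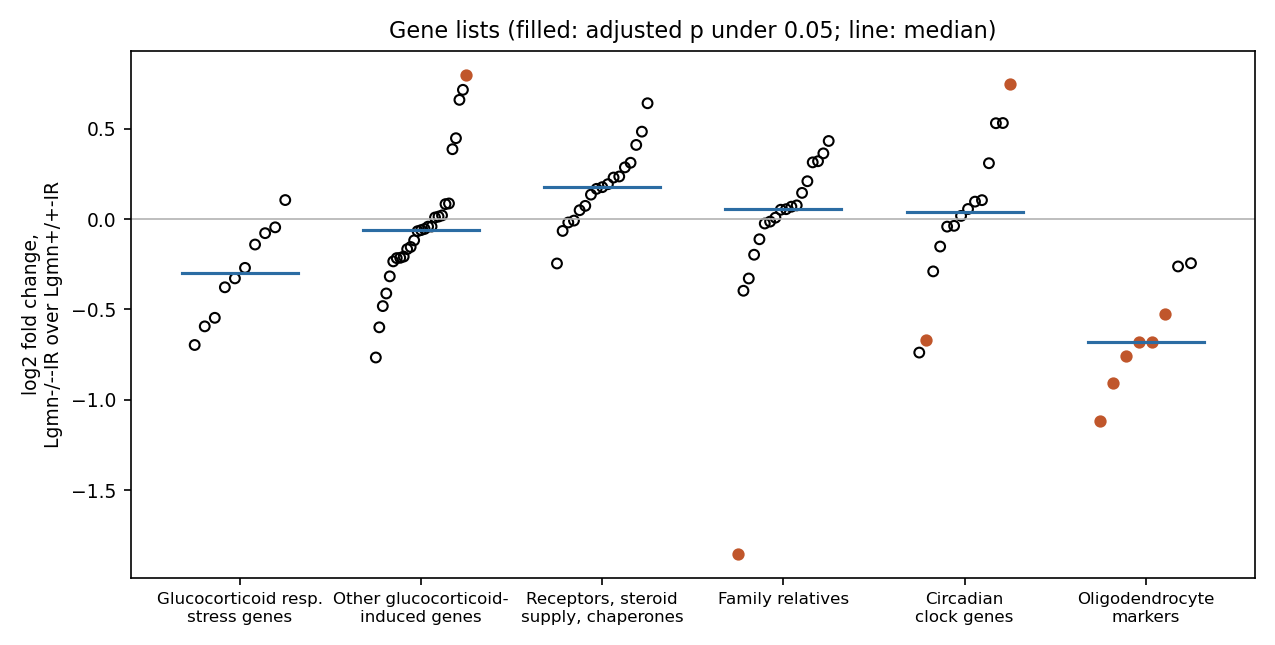
Fitted log2 fold change (*Lgmn*-/--IR over *Lgmn*+/+-IR) of every tested gene of each list, with genes at an edgeR adjusted p under 0.05 marked and a bar at the list's median. The 10 stress genes hold no called gene and have a median of −0.30, and the oligodendrocyte list holds 6 called genes, all lower.

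Among cell type markers, those of oligodendrocytes, the myelin-forming cells, differed with genotype. All 8 of its genes were tested, none was at 0 in any library, and 6 were lower in the knockout at an edgeR adjusted p under 0.05, against 1.68% of all genes. *Mobp* (log2 fold change −1.12, edgeR adjusted p = 0.00330) was called in every alternative. *Cldn11* (−0.68, edgeR adjusted p = 0.0160) and *Mog* (−0.91, edgeR adjusted p = 0.0171) each lost their call without wild-type replicate 1 or 2 or knockout replicate 1 or 3, with edgeR adjusted p of up to 0.0868. The summed oligodendrocyte level was 3623 to 4380 CPM in *Lgmn*+/+-IR and 2399 to 2573 CPM in *Lgmn*-/--IR. Unlike *Sgk1*, *Ddit4*, or *Plin4*, which were high in knockout replicate 2, that sum was close among the 3 knockout libraries. The part of oligodendrocyte RNA in the members' values was not tested. Of 8 astrocyte markers, 1 (*Aqp4*, 0.55, edgeR adjusted p = 0.0374) and 1 of 8 meningeal and choroid plexus markers (*Slc6a13*, 0.68, edgeR adjusted p = 0.0275) were higher, against 1.65% of all genes. The *Aqp4* call was kept only without knockout replicate 2 when 1 library was left out (edgeR adjusted p of up to 0.129), and the *Slc6a13* call was lost without any single library (0.0547 to 0.140). Of 8 microglial markers 0 were called by edgeR (2 at an unadjusted p under 0.05, and 1 called by DESeq2). Of 7 tested hemoglobin and erythroid markers, 5 were called higher in the knockout by edgeR, against 1.65% of all genes. *Hba-a1* was at 3.38, 2.06, and 4.68 CPM in *Lgmn*+/+-IR and 891, 651, and 90.6 CPM in *Lgmn*-/--IR (log2 fold change 7.33, edgeR adjusted p = 0.00877, and up to 0.0530 with 1 library left out). Replicate 3 had the least of it among the knockout libraries, whereas most members were highest in replicate 2, and the part of blood RNA in the members' values was not tested.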

How the data were processed

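Counts and FPKM per gene of 6 cortical libraries were used as deposited. Per the submitters' processing notes, Trimmomatic (0.36) and the GRCm38 build were used; the study's methods name HISAT2 for mapping and StringTie for expression values, while the tool behind the count table and its strand setting are not given in the sources used here. The 10 members and all gene lists were chosen with earlier results of these data known. Deposited counts were filtered with filterByExpr (18345 of 51826 genes), scaled by TMM, and tested with the quasi-likelihood F-test of edgeR (4.0.16, R 4.3.3), with Benjamini-Hochberg adjustment over all genes tested. Deposited FPKM values served for levels per length and, with limma (3.58.1) on log2(FPKM + 1), as an alternative, beside limma-voom, DESeq2 (1.42.0), other scalings and filters, and leaving out each library. All members were named with every value; from the other lists, *Nr3c1*, *Nr3c2*, and genes with an adjusted p under 0.05 were named, at most 4 per list outside the receptor, target, and relative lists; 1 such gene is not reported here. Single values were compared by exact permutation (SciPy 1.17.1). On simulated counts for this comparison (18345 genes, 200 changed), edgeR recovered 49.4% of 2-fold and 84.7% of 4-fold changes. Of its calls at an adjusted p under 0.05, 8.61% were false. Replicates differed by 29.2 to 104 chi-square units per gene, so none was a duplicate. Positions are from GENCODE M21 (GRCm38). BLAST (2.17.0+) found no other transcript with at least 95% identity over 80% of a member.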

Additional observations from a re-analysis of the deposited data

How the results depend on the processing

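No member's call changed except that of *Ddit4*, and with 1 library left out the count of members called was 0 to 1. Opposite signs were fitted for *Tsc22d3* in 2, *Zbtb16* in 4, and *Pdk4* in 2 of 18 alternatives. Of all genes, 611 were called, against 1423 with DESeq2, 404 without a filter, 406 with at least 10 counts in every library, 381 with FPKM unfiltered, and 223 to 500 with 1 library left out. With an absolute log2 fold change over 1 there were 377, against 593 with DESeq2, 228 with at least 10 counts, 175 with log2(FPKM + 1), 144 with FPKM unfiltered, and 200 to 326 with 1 library left out. Of the other glucocorticoid-induced genes 1 was called, against 5 with DESeq2, 0 with limma-voom, total counts, no hemoglobin genes, no filter, at least 10 counts, FPKM + 0.1, FPKM + 0.01, or FPKM unfiltered, and 0 to 1 with 1 library left out. The call with a library left out was not *Nfil3* but *Arl4d*, lower without knockout replicate 2 (log2 fold change −0.60, edgeR adjusted p = 0.0470). With FPKM + 1 the call was *Angptl4* (−0.43, limma adjusted p = 0.0395). Both are named after their values were seen. Of the receptor genes 0 were called, against 2 with DESeq2, 1 with total counts, 2 with FPKM + 1, + 0.1, or + 0.01, and 0 to 1 with 1 library left out.

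Same-numbered replicates did not deviate together over all tested genes (correlations −0.252, −0.0464, and −0.0276). These correlations cannot show a pairing that touches only some genes, and such a pairing was not tested. With the replicate number as a block, 150 genes were called, 139 past the fold threshold, with 0 members and 0 of the other glucocorticoid-induced genes; *Sgk2* (edgeR adjusted p = 0.0560), *Dbp* (0.0627), *Arntl* (0.125), *Nfil3* (0.0759), *Lgmn* (0.113), *Cldn11* (0.0628), *Aqp4* (0.136), *Slc6a13* (0.138), and *Hba-a1* (0.0759) lost their calls, and *Mobp* and *Mog* kept theirs. The spread of the members among libraries of the same genotype sets the width of their intervals, and the causes of the differences between settings were not tested.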
